A study of Mus musculus with 6 samples.

Results

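Interferon response and antigen presentation genes are described here by the Eomes binding sites assigned to them in mouse natural killer (NK) cells. The set comprised 44 genes, set against the 21887 protein-coding genes of the RefSeq table for GRCm38.p6, the assembly behind mm10. They were taken by symbol from the rows of 3 deposited peak lists. All 44 were found in the RefSeq table, where 42 are protein coding and Mx1 and Mx2 are listed as transcribed pseudogenes. The lists of experiments 1, 2 and 3 held 37456, 33841 and 46329 peak intervals, of which 44, 31 and 62 carried the symbol of a member. Each list came from chromatin of splenic NK cells immunoprecipitated with an antibody against Eomes (IP), a T-box transcription factor, and set by the authors against input DNA of the same experiment. All cells came from wild-type C57BL/6 mice aged 8 to 12 weeks, pooled at the level of splenocytes, and were grown for 4 days in IL-15 at 100 ng/mL, the one cytokine that the labels name. There was no second genotype or treatment. The files hold binding sites and no expression, so the cell type could not be checked by its markers, and whether a member was expressed in these cells was not measured.

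Interferons are cytokines released on infection. Binding to their receptors activates JAK kinases, and transcription factors then switch on genes through a DNA element called the interferon-stimulated response element (ISRE). The products include enzymes and GTPases that block viruses and intracellular bacteria, sensors of viral nucleic acid, and the machinery that loads peptides onto MHC class I molecules. Class I molecules are read by NK cells as a sign of self, and NK cells both respond to interferons and release interferon gamma.

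Promoter sequences of members that the results turn on are shown first, to set starts under a region found in at least 2 experiments beside starts without one. Each is the 250 bases before the gene start used by the RefSeq promoter table, on GRCm38.p6, written 5′ to 3′ on the strand of the gene. Capitals mark matches on either strand to GGTGTGA, the core of the T-box motif, and to GAAANNGAA, the core of the ISRE. Overlapping matches run together, and positions count back from -1, the base before that start. The first 5 lie under a region found in at least 2 experiments, Cmpk2, Trim25 and Irgm1 over all 250 bases, Tapbp over 115 and Bst2 over 70 of them.
Cmpk2, chr12:26468965-26469214, plus strand: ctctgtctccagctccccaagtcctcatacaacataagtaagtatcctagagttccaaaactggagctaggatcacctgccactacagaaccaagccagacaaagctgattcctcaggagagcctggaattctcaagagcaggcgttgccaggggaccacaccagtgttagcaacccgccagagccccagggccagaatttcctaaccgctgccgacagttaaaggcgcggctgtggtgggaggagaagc
Tapbp, chr17:33919228-33919477, plus strand: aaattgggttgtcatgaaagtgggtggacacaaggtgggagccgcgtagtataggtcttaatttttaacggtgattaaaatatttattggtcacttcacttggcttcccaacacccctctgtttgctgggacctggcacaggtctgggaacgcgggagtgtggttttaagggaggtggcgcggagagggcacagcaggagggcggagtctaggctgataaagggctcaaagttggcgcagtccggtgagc
Trim25, chr11:88999153-88999402, plus strand: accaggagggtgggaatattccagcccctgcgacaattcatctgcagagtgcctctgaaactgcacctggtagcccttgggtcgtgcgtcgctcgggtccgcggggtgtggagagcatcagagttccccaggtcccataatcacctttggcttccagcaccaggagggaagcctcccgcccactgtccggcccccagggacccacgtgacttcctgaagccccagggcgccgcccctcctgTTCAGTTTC
Irgm1, chr11:48871421-48871670, minus strand: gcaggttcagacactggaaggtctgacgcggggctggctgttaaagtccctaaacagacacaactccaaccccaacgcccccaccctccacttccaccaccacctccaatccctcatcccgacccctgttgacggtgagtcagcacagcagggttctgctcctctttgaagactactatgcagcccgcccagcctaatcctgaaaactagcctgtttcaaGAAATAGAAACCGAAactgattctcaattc
Bst2, chr8:71537473-71537722, minus strand: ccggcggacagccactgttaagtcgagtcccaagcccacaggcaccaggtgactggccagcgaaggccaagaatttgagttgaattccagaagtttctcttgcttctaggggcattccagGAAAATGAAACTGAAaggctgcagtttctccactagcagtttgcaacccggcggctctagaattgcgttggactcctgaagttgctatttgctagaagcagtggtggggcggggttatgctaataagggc
No such region lies over the next 3, which belong to Isg15, Rsad2 and Oas3.
Isg15, chr4:156200819-156201068, minus strand: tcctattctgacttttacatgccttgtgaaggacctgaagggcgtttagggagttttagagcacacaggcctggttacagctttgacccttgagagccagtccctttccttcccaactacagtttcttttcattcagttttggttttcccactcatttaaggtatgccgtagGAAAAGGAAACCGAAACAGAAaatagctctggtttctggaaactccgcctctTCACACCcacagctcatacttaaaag
Rsad2, chr12:26456453-26456702, minus strand: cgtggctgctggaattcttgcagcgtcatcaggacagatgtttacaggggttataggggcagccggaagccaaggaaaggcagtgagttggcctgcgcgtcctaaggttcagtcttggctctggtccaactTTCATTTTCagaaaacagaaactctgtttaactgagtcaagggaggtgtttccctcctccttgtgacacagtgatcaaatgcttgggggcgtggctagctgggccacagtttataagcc
Oas3, chr5:120777660-120777909, minus strand: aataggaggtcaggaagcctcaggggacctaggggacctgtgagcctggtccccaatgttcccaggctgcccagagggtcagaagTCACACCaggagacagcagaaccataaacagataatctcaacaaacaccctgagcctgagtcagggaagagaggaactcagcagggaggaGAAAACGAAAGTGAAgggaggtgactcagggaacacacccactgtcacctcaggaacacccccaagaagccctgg
The Cmpk2 and Tapbp stretches, which lie under such a region, held no match to either core. Trim25 had 1 ISRE match, from -9 to -1, on the opposite strand. Irgm1 had a run of 2 overlapping ISRE matches from -30 to -16, and Bst2 a run of 2 from -130 to -116. The Isg15 stretch, with no such region over it, held 3 overlapping ISRE matches from -78 to -58 and a T-box core from -26 to -20. Oas3 held a T-box core from -165 to -159 and 2 overlapping ISRE matches from -75 to -61, and Rsad2 1 ISRE match from -119 to -111. The Bst2 run lay outside the 70 bases under the region, which end at the gene start. The 8 stretches were chosen after their values were seen, and the shares over all windows follow further on.

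With all 3 lists, Eomes regions were found at the members about as often as at other genes. Intervals that overlapped between lists were joined to form regions, here called reproducible when 2 or 3 experiments contributed a peak. Of the 44 members, 19 (43.2%) had a reproducible region, against 44.8% of all protein-coding genes. A region in all 3 experiments was assigned to 10 members (22.7%), against 29.8% of genes. Another 13 members had peaks but no reproducible region (29.5%, against 26.4%), and 12 had no peak in any experiment (27.3%, against 28.8%). In the single lists, experiment 1 placed a peak at 22 of the 44 members (against 54.1% of genes), experiment 2 at 19 (43.2%, against 54.0%) and experiment 3 at 27 (61.4%, against 60.1%). No test was run on these counts, since the genes were chosen with earlier results of the data known. The shares lay near the background in experiments 1 and 3 and below it in experiment 2. A peak in at least 1 experiment was assigned to 32 members (72.7%, against 71.2%), and 3 members, Isg20, Oas3 and Tapbp, had at least 3 reproducible regions (6.82%, against 6.73%).

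The members carried 98 regions, of which 28 were reproducible (28.57%), 11 of them in all 3 experiments and 17 in 2. The other 70 were each found in 1 list, 38 of them in experiment 3, the longest list, 21 in experiment 1 and 11 in experiment 2. Of all 84399 regions, 20126 were reproducible (23.85%), and 10328 of these were in all 3 experiments. Leaving out any 1 experiment left 13 of the 19 members, but not the same 13. These 13 are 29.5% of the 44, against 37.4%, 36.0% and 31.0% of genes without experiments 1, 2 and 3, so the members' share was then below that of genes in each case. Without experiment 1 the members lost were Ifih1, Xaf1, Parp14, Dtx3l, Gbp3 and Tap1. Without experiment 2 they were Ifih1, Mx2, Xaf1, Parp14, Irgm1 and Nlrc5, and without experiment 3 Mx2, Dtx3l, Gbp3, Irgm1, Nlrc5 and Tap1. The count of reproducible regions fell from 28 to 16 without experiment 1 and to 15 without experiment 3. The count of members with a reproducible promoter region fell from 17 to 11 without experiment 3.

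**Figure D1:**
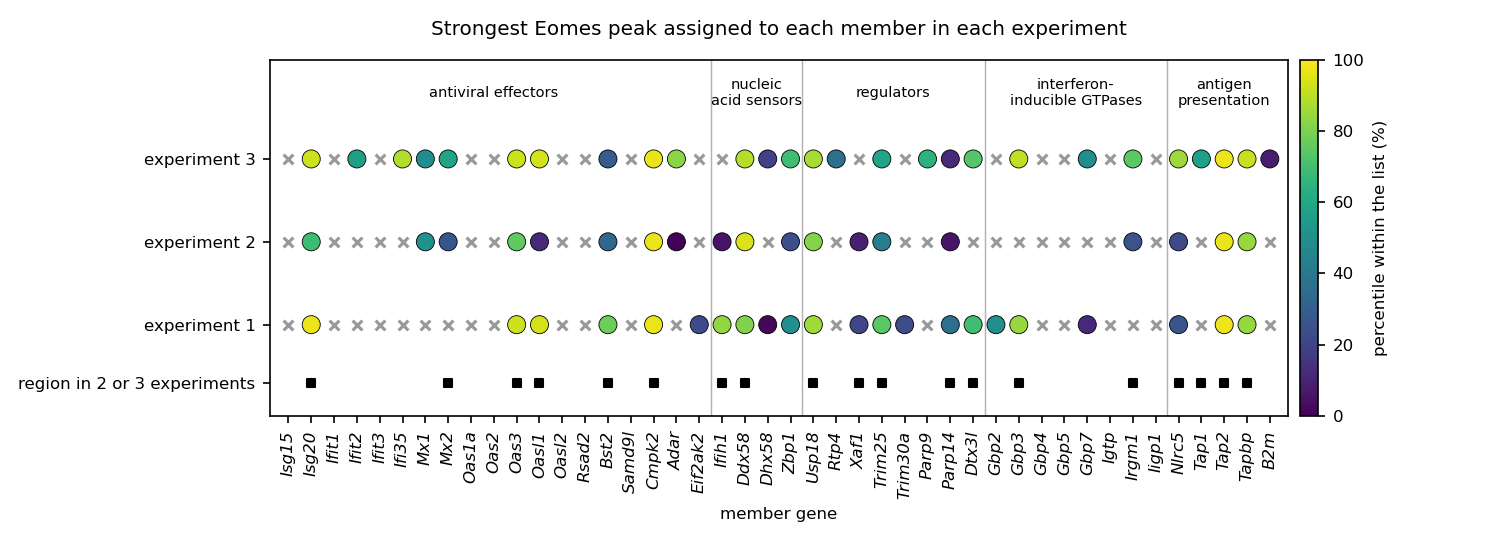
The strongest Eomes peak assigned to each of the 44 members (x axis, grouped by role) in each of the 3 experiments (y axis), coloured by its percentile of −log10 q within that list. Crosses mark no assigned peak, and squares mark the 19 members with a reproducible region, among them Tap1, whose experiment 1 peak in that region carries the symbol Psmb9.

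The members' sites were mostly at promoters, and of middling rank. The deposited annotation placed 24 of the 28 reproducible regions (85.7%) in its promoter class, which reaches 3000 bp from a transcript start, against 59.1% of all 20126 reproducible regions. The other 4 were 2 intronic regions, at Parp14 and Nlrc5, and 2 exonic ones, assigned to Isg20 and Oas3. Counted by gene, 17 members (38.6%) had a reproducible promoter region, against 38.4% of genes, and 4 (9.09%) had one outside promoters, against 15.1%. The share of promoter sites among the members' regions was thus high while the share of members with a promoter site lay at the background. Sites were ranked by the percentile of their −log10 q-value within their own list, averaged over the experiments that found them. The median of the 28 regions was 52.0, against 64.8 for all reproducible regions, with a range from 14.2 to 97.2. A mean percentile of at least 90 was reached by 2 of the 28, at Tap2 and Cmpk2, against 14.3% of all reproducible regions. These were also the 2 members (4.55%) with one of the 2000 highest-ranked regions, against 6.25% of genes. A reproducible region over an annotated transcript start was assigned to 10 members (22.7%, against 28.4%). Pileups, read here as IP fragments over the summit, ran from 7 to 46 at the members, and the smallest pileup in the lists was 8, 7 and 9. The lowest −log10 q in the lists was 1.31, 1.32 and 1.31, and binding below these limits is not listed.

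Members were also counted by role, and 44.8% of all protein-coding genes had a reproducible region for comparison. Antiviral effectors were the largest group, with 6 of 19 covered by a reproducible region, 5 with peaks that were not reproducible and 8 with no peak. Cmpk2, which encodes a mitochondrial nucleotide kinase, had the leading site of this group, over its start on chromosome 12 (26468737 to 26469467). Its pileup was 33, 26 and 39 fragments in experiments 1, 2 and 3, with a fold over background of 10.2 ± 1.36 (SD, n = 3). All 3 peaks stood near the top of their lists, at percentiles of 96.9, 96.9 and 96.8. Rsad2, which encodes the antiviral enzyme viperin, lies 12665 bp from Cmpk2 and had no assigned peak.

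Isg20, an exonuclease that degrades viral RNA, carried 4 reproducible regions, the most of any member. The highest-ranked one lay outside the RefSeq span of Isg20, at -3837 bp (chromosome 7, 78909114 to 78909587), in the last exon of a transcript of the neighbouring gene Aen. Its pileup was 31, 17 and 32 fragments and its fold 6.94 ± 2.46 (SD, n = 3), with experiment 2 the lowest. The other 3 regions were promoter regions, were found in 2 experiments each, and had mean percentiles from 14.2 to 37.5. The region nearest the start (78913577 to 78913952) was the lowest-ranked reproducible region of the set.

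Among the oligoadenylate synthetase genes, whose enzymes detect double-stranded RNA and activate the nuclease RNase L, binding was uneven. Oas3 had 3 reproducible regions and Oasl1, an OAS-like protein gene, had 1, while Oas1a, Oas2 and Oasl2 had no peak. The leading Oas3 region (chromosome 5, 120754302 to 120754709) had pileups of 26, 14 and 33 and a fold of 5.89 ± 0.55 (SD, n = 3). The annotation calls it a promoter at 1725 bp from a transcript start, but its summit lay 23266 bp downstream of the RefSeq start of Oas3, near the far end of the gene. A second Oas3 region in the promoter class, at 1880 bp from the RefSeq start, was found in experiments 1 and 3 with pileups of 12 and 26. Experiment 3 alone had a peak at -1486 bp (120779147 to 120779636), at percentile 92.4. At Oasl1 the region lay upstream, at -1258 bp (chromosome 5, 114921732 to 114922002). Its pileups were 24, 11 and 33, which put it at percentiles of 93.5 and 93.3 in experiments 1 and 3 but 11.3 in experiment 2.

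Bst2 encodes tetherin, which holds budding virions at the cell surface. Its region in all 3 experiments lay at 1313 bp (chromosome 8, 71535797 to 71536124), with pileups of 9, 9 and 12, each within 3 fragments of the lowest pileup in its list. A second region, at 130 bp from the start, was found in experiments 2 and 3 with 9 and 12. Mx2, an antiviral GTPase gene listed as a pseudogene, had a region at -944 bp in experiments 2 and 3 (10 and 14 fragments, fold 4.27 ± 0.33, SD, n = 2). Mx1 had peaks in the same experiments that did not overlap.

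The other members of this group with peaks had none that was shared. Experiment 3 alone had a peak over an annotated transcript start of Ifi35 (chromosome 11, 101448300 to 101448607, percentile 88.4) and of Ifit2 (chromosome 19, 34550560 to 34550742, percentile 55.95). Ifit2 encodes a protein that binds viral RNA. Eif2ak2, which encodes the RNA-activated kinase PKR, had peaks in experiment 1 alone, and Adar, an RNA-editing enzyme gene, had peaks in experiments 2 and 3 at different places. No peak was assigned to Isg15, the ubiquitin-like modifier, to Ifit1 or Ifit3, or to Samd9l, an antiviral factor gene.

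Of the 4 nucleic acid sensors, 2 were covered. Ddx58, which encodes the RNA sensor RIG-I, had a region in all 3 experiments (chromosome 4, 40229771 to 40230200) with pileups of 18, 22 and 38 and a fold of 6.19 ± 2.33 (SD, n = 3). It ranked at 81.1, 94.4 and 88.8 within the lists. The annotation calls it a promoter at -1443 bp from a transcript start, while its summit lay 9819 bp downstream of the RefSeq start, inside the gene. Ifih1, which encodes the RNA sensor MDA5, had a region over an annotated transcript start in experiments 1 and 2 (chromosome 2, 62646003 to 62646226), with its summit 142 bp inside the RefSeq start, with 15 and 7 fragments, the latter the lowest pileup in that list. Zbp1, a sensor of Z-form nucleic acid, had separate peaks in each of the 3 experiments, and Dhx58, which encodes the RIG-I-like protein LGP2, had low-ranked peaks in experiments 1 and 3.

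Of the 8 regulators and modifying enzymes, 5 were covered, 4 of them at promoters. Usp18 removes ISG15 from proteins and dampens interferon receptor signalling. Its region covered the start (chromosome 6, 121245682 to 121246017), with pileups of 16, 14 and 23 and a fold of 5.86 ± 0.80 (SD, n = 3). The summit lay 41 bp upstream of the RefSeq start, and the percentiles were 85.9, 69.9 and 86.7. Trim25, the ubiquitin ligase that acts on RIG-I, also had a region over its start in all 3 experiments (chromosome 11, 88999146 to 88999583), with pileups of 15, 10 and 11. Its fold was 4.18 ± 0.62 (SD, n = 3), and its percentile ran from 74.2 in experiment 1 to 18.97 in experiment 3. Xaf1, a pro-apoptotic factor gene, had a low-ranked region over an annotated transcript start in experiments 1 and 2 with 12 and 8 fragments.

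Parp9 and Dtx3l encode partner proteins, an ADP-ribosyltransferase family member and a ubiquitin ligase, and their annotated spans overlap at their starts. The region at -733 bp from Dtx3l (chromosome 16, 35939808 to 35940058) carried the symbol Dtx3l and had pileups of 13 and 18 in experiments 1 and 3. It lies within the RefSeq span of Parp9. A peak of experiment 3 alone lay 45 bp upstream of the RefSeq start of Dtx3l and was assigned to Parp9. Peaks of this pair thus carried either symbol within about the same stretch. Parp14, another ADP-ribosyltransferase gene, had an intronic region in experiments 1 and 2 with 11 and 7 fragments. Rtp4 and Trim30a had peaks in 1 experiment each.

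Interferon-inducible GTPases of this group attack the vacuoles of intracellular pathogens. Mx1 and Mx2 are counted with the effectors instead. Of the 8 in the group, 2 had a reproducible region, 2 had other peaks and 4 had none. Gbp3 had a region 192 bp downstream of its nearest start (chromosome 3, 142560603 to 142561037), with 19 fragments in experiment 1 and 30 in experiment 3 and a fold of 5.83 ± 1.09 (SD, n = 2). It ranked at 84.6 and 90.4 in those lists, and experiment 2 had no peak there. Irgm1 had a region over its start (chromosome 11, 48871325 to 48871813) with 10 and 19 fragments in experiments 2 and 3. Gbp2 and Gbp7 had peaks near their starts that were not shared. No GTPase gene had a region in all 3 experiments.

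Antigen presentation genes had reproducible regions at 4 of 5 (against 44.8% of all protein-coding genes), and 7 regions in all. Tap2, a subunit of the transporter that carries peptides into the endoplasmic reticulum, had the highest-ranked region of the whole set. It lay on chromosome 17 (34210468 to 34211152) with pileups of 46, 29 and 44 and a fold of 9.34 ± 1.76 (SD, n = 3). The 3 experiments placed it at percentiles of 97.6, 96.9 and 97.2. Its promoter label refers to a transcript start 2795 bp away, and the summit lay 6318 bp downstream of the RefSeq start. Over the RefSeq start itself, Tap2 had a weaker region in experiments 1 and 3 with 10 and 21 fragments (34204376 to 34205028).

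Tapbp encodes tapasin, which bridges the transporter to class I molecules. It had 3 reproducible regions, led by one over its start (chromosome 17, 33919363 to 33920043) with pileups of 17, 22 and 27 and a fold of 5.72 ± 2.10 (SD, n = 3). The upstream region (33915767 to 33916201) was in all 3 experiments, but its experiment 2 interval carried the symbol of the neighbour Zbtb22. Tap1, the other transporter subunit, shares its promoter with the immunoproteasome gene Psmb9. The region there (34186946 to 34187606) had 15 and 21 fragments in experiments 1 and 3, and its experiment 1 interval was assigned to Psmb9. Nlrc5, the transactivator of class I genes, had an intronic region in experiments 2 and 3 with 12 and 22 fragments. Its start, however, lay under another reproducible region (chromosome 8, 94434083 to 94434535), found in experiments 1 and 3, that carried the symbol 9330175E14Rik. The summit of that region was 16 bp upstream of the RefSeq start of Nlrc5, and its mean percentile was 86.7. B2m, which encodes the light chain of class I molecules, had a low-ranked peak 176 bp from its start in experiment 3 alone.

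**Figure D2:**
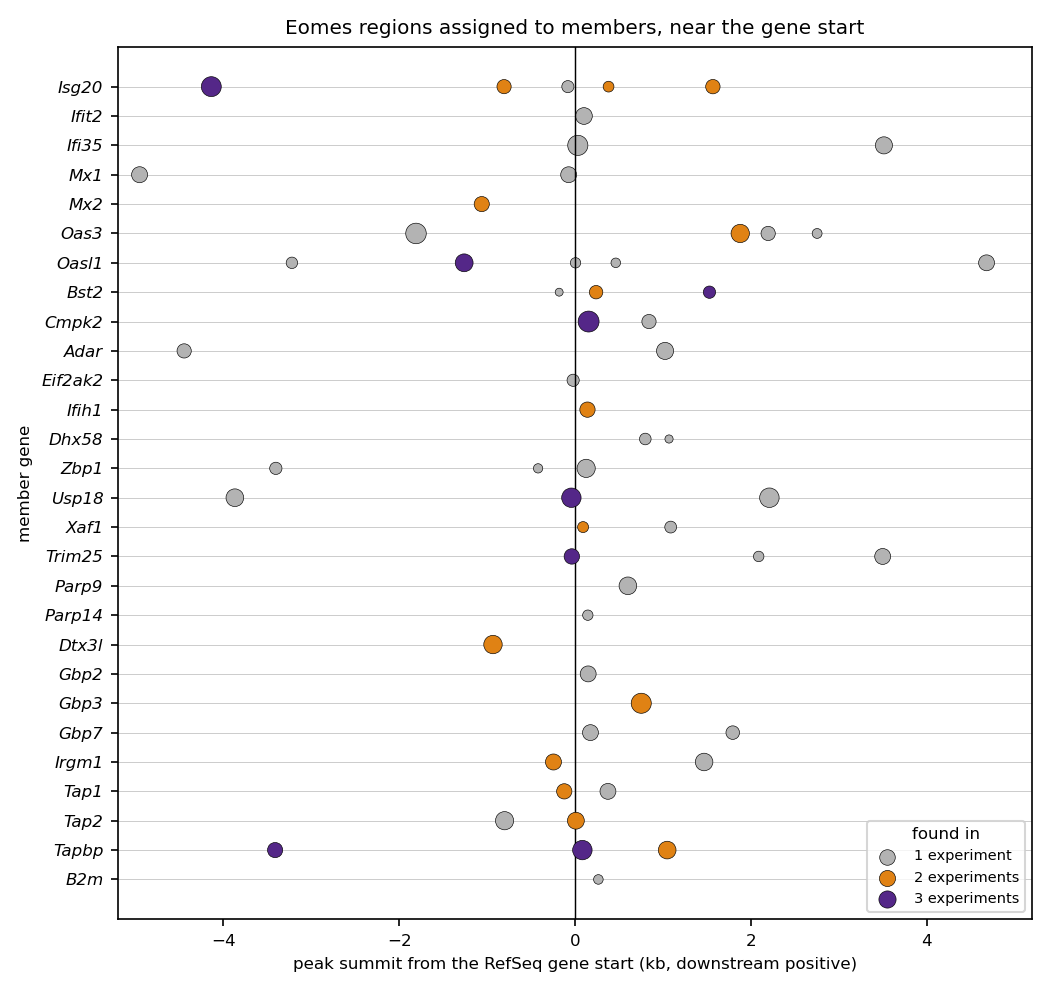
Summits of the regions assigned to members, as distance from the RefSeq gene start in kb (x axis), for members with a region within 5 kb (y axis); colour gives the number of experiments and point size the mean percentile. Regions in all 3 experiments lie near the start at Cmpk2, Usp18, Trim25 and Tapbp, and over 1 kb from it at Isg20, Oasl1, Bst2 and a further Tapbp region, while the leading Tap2, Ddx58 and Oas3 regions fall outside the plotted range.

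Distance to the nearest transcript start and distance to the gene start gave different pictures for some members. Of the 24 reproducible promoter regions, 12 covered the transcript start named by the annotation. The summit lay within 1 kb of the RefSeq start in 14 and within 3 kb in 20. The 4 others were the leading regions of Tap2, Ddx58 and Oas3 and the upstream region of Tapbp. A further count took any reproducible region within 3 kb of the RefSeq start, whatever its symbol. It covered 20 of the 41 members whose strand was known (48.8%, against 41.9% of 20608 such genes). Isg15, Parp9 and Gbp5 entered this count, and Ddx58 and Parp14 left it. A region of any support within 3 kb was found at 31 of the 41 members (75.6%, against 61.9% of genes). Strand was read from the promoter table or else from the peak lists. A member without a promoter window thus entered these 2 counts only if it had a peak. Those left out, Oas2, Gbp4 and Iigp1, had no assigned peak. The shares over 41 members therefore cannot be read as an excess over genes.

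Of the 12 members with no assigned peak, 8 had no region of any kind over the gene or within 3 kb of it. They were Ifit1, Ifit3, Oas1a, Oas2, Oasl2, Rsad2, Samd9l and Iigp1. The nearest reproducible region was 170605 bp away for Samd9l, 120304 bp for Oas1a and 113340 bp for Ifit1. The remaining 4 had peaks that carried the symbol of a neighbour. A reproducible region lay 501 bp downstream of the start of Gbp5 and was assigned to Gbp2b. Gbp4 and Igtp had a peak of 1 experiment over the gene, assigned to Gbp9 and Irgm2. Isg15 had a region in all 3 experiments 1161 bp beyond its end, assigned to Agrn, and one in experiments 2 and 3 at -2364 bp from its start, assigned to AW011738. In a count made after the values were seen, 9 of the 12 belonged to the Ifit, Oas, Gbp or immunity-related GTPase families, whose members lie side by side as similar copies. The same families hold Oas3, Oasl1, Gbp3 and Irgm1, which had reproducible regions, and Ifit2, Gbp2 and Gbp7, which had peaks that were not reproducible. The share of such families among all genes with no peak was not counted. Whether reads could be placed uniquely in the copies of these families was not tested, so a missing peak does not show absence of binding.

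Sequence at the starts was compared over the 31 members and 17492 protein-coding genes that had a window in the promoter table, from 250 bases before to 50 after a start. A gene with several windows counted as having a motif when any of them held it. The full T-box motif AGGTGTGA was in no member's window, against 1.36% of genes, and its core GGTGTGA in 4 (12.9%, against 4.32%), at Isg15, Ifit1, Ifi35 and Oas3. The ETS core CCGGAAGT, which occurs at many active promoters, was in 2 (6.45%, against 5.69%), at Ifit2 and Ifih1. The ISRE core was in 21 of 31 windows (67.7%, against 9.43% of genes), which is the element by which many such genes are known. These matches, on either strand, describe letters and not occupied sites, and the T-box core is part of the full motif.

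Of the 4 members with a T-box core, none had a reproducible region over the window. Over all genes, 36.3% of those with the core and 34.8% of those without had one. Of the members, 9 of 31 (29.0%) had a reproducible region over the window, against 34.9% of genes. These were Isg20, Ifih1, Bst2, Xaf1, Trim25, Irgm1, Cmpk2, Tap1 and Tapbp. With an ISRE core it was 4 of 21 members (19.0%) and without one 5 of 10. Over all genes the shares were 27.2% with and 35.7% without the core, in the same order.

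The number of CpG dinucleotides moved with these shares. Windows under a reproducible region held a median of 25 CpG over all genes, and the others 6. Genes with an ISRE core had a median of 9 CpG and those without one 15. Among windows of at most 15 CpG, the median of all genes, 10.1% of genes with an ISRE core and 10.5% of those without lay under a reproducible region. Above 15 CpG these shares were 60.1% and 61.5%. Within either CpG class, genes with and without the ISRE core thus had like shares. The member counts per class were small. At most 15 CpG, 3 of 18 members with the core (16.7%) and 5 of 9 without it (55.6%) lay under a reproducible region. Above that 1 of 3 and 0 of 1 did, in the other order. The difference among members was not tested. Member windows were poor in CpG, with a median of 8 against 15 for all genes. The 9 member windows under a reproducible region held 6 to 18 CpG (median 11) and the 22 others 0 to 34 (median 5.5). Of the 27 members with at most 15 CpG, 8 lay under a reproducible region (29.6%, against 10.4% of genes), and of the 4 above that 1 did (Trim25), against 61.4% of genes. The part of CpG content in the members' counts was not tested.

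**Figure D3:**
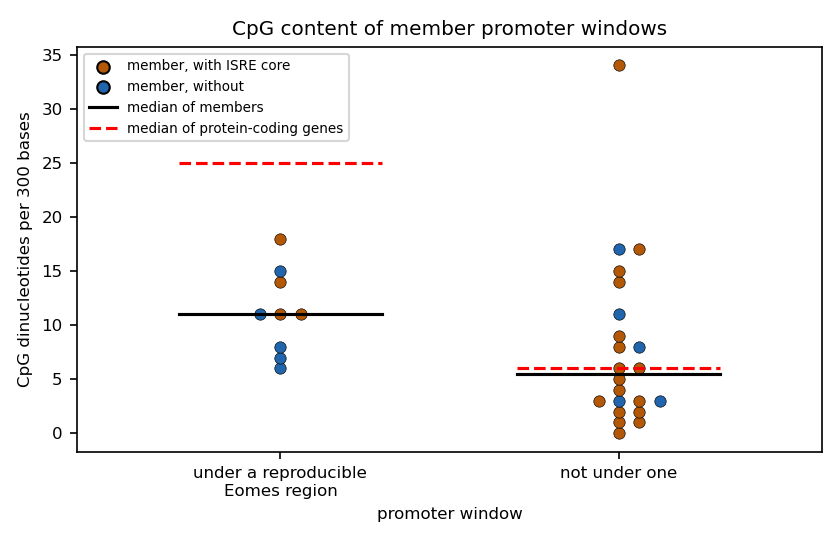
CpG dinucleotides per 300-base promoter window (y axis; the highest window of a gene) for the 9 members whose window lies under a reproducible Eomes region and the 22 whose window does not (x axis). Points are members, coloured by the ISRE core, solid lines their medians (11 and 5.5), and dashed lines the medians of protein-coding genes (25 and 6).

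Other genes of the pathway were taken from lists that hold no member. Of 54 such genes, 38 (70.4%) had a reproducible region, against 43.2% of the members and 44.8% of all protein-coding genes. A region in all 3 experiments was found at 24 of the 54, against 29.8% of genes. Interferon reception and signalling genes were covered at 9 of 10. The site with the highest rank lay at -5629 bp from the start of Ifnar2, a chain of the receptor for interferon alpha and beta (chromosome 16, 91366638 to 91367154). Its pileup was 65, 53 and 94 in experiments 1, 2 and 3 and its fold 19.4 ± 5.27 (SD, n = 3), above every region of the members. A promoter region of Ifngr2, a chain of the interferon gamma receptor, had a fold of 11.8 ± 2.77, and an intronic region of the kinase gene Jak1 had 10.2 ± 0.38 (SD, n = 3 each). Jak2 had peaks that were not shared.

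All 12 other class I presentation genes had a reproducible promoter region, against 38.4% of all protein-coding genes. A region in all 3 experiments was found at 9 of the 12, against 29.8% of genes. Calr, which encodes the chaperone calreticulin, had a fold of 6.62 ± 1.42 and Erap1, the peptidase that trims class I peptides, 5.61 ± 0.90 (SD, n = 3 each). Canx, another chaperone gene, had 5.81 ± 1.53 in experiments 2 and 3, and the leading Psmb9 region, 12150 bp from the start, 6.20 ± 0.60 in experiments 1 and 3 (SD, n = 2 each). The class I genes H2-K1 and H2-D1 had promoter regions in all 3 experiments at 5.26 ± 2.07 and 4.22 ± 0.21 (SD, n = 3 each). They belong to a family of near-identical copies, so reads there could have been placed at another copy.

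Of 22 other interferon-induced genes, 13 were covered (59.1%), and Ifi27, Ifi44, Ifi204 and Gbp6 had no peak. The leading region of Ifitm3, which blocks viral entry, lay 19793 bp from its start with a fold of 7.03 ± 1.90, and that of Znfx1, an RNA helicase gene, at its promoter with 5.76 ± 0.41 (SD, n = 3 each). Ifitm1 and Irgm2 had leading regions in experiments 1 and 3 with 6.18 ± 1.41 and 6.26 ± 1.69 (SD, n = 2 each). Genes that induce interferon were covered at 4 of 10. The promoters of Mb21d1, which encodes the DNA sensor cGAS, and Irf7 had pileups of 31, 17 and 27 and of 21, 18 and 27 fragments, and the latter a fold of 6.32 ± 0.31 (SD, n = 3). The kinase gene Tbk1 and the receptor gene Tlr9 had 7.35 ± 0.65 and 4.62 ± 0.17 in experiments 2 and 3 (SD, n = 2 each). Tlr7 had no peak. The lists were short and no difference between them or from the members was tested.

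**Figure D4:**
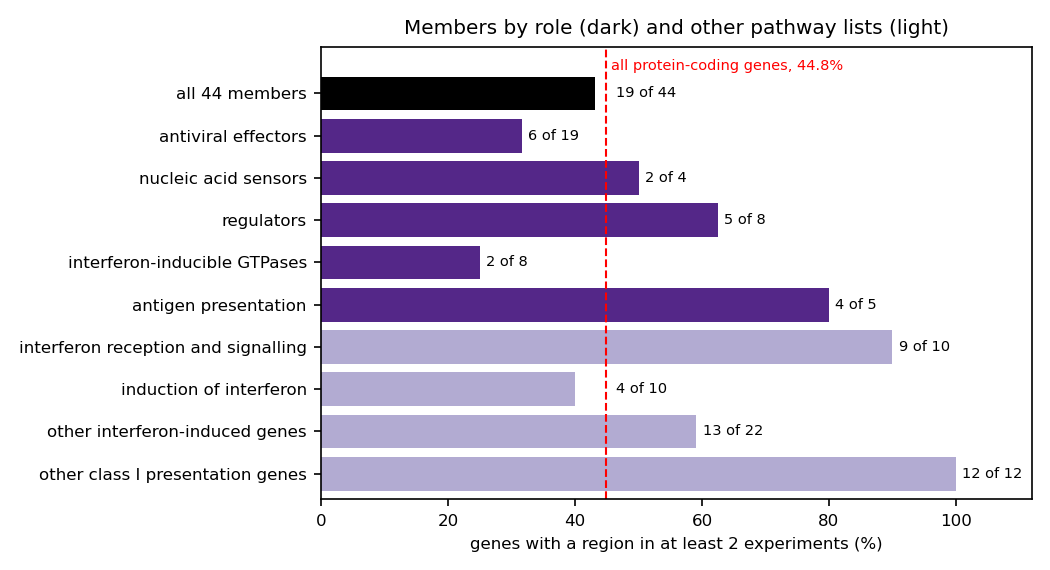
Share of genes with a reproducible Eomes region (x axis, %) for the 44 members, their 5 role groups (dark bars) and 4 other lists of the pathway (light bars), with the number of genes beside each bar. The dashed line is the share of all protein-coding genes (44.8%). Effectors, GTPases, genes that induce interferon and the members as a whole lie below it. Sensors, regulators, antigen presentation genes and the remaining lists lie above it.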

How the data were processed

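Eomes ChIP-seq peaks of 3 experiments were used as deposited, 1 list per IP library, each set by the authors against its own input, per the labels. Peaks were called per experiment. The submitters' processing notes name mm10, Novoalign and ChIPseeker, while the peak caller is not stated there or in the labels. The pileup is a signal that the authors deposited as whole numbers, fold enrichment is the ratio over background deposited with each peak, and −log10 p and −log10 q are the authors' scores. The scores describe or rank peaks within their own list. Other deposited values, the distances in bp to a transcript start, came with the annotation. Total library depth is unknown.

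Sub-peaks of an interval were collapsed to the one with the highest −log10 q. Intervals overlapping by at least 1 bp were merged (Python 3.11.15, pandas 2.3.3), and the merging was tested on simulated data and against bedtools 2.31.1. Regions took the class and distance of their highest-ranked interval. Coordinates are as the lists give them. Symbols were matched to RefSeq directly or through a synonym held by 1 gene of that chromosome. The gene start is the end of the RefSeq span set by strand. Strand came from the promoter table or else from the peak lists, and was known for 41 members. All 44 members are accounted for, with values per experiment for those in all 3 experiments or of leading rank, and up to 4 genes per other list are named, with those that had no peak, except 1 gene that is not reported here. H2-K1, H2-D1, Jak2 and counts by CpG were added after the values were seen. The members and lists were chosen with earlier results of these data known, so no set test was run, and no model was fitted. The labels describe the 3 as separate experiments on pooled mice.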

Additional observations from a re-analysis of the deposited data

How the results depend on the processing

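Of 36 alternatives, 22 left a count within 1.5 times its value and 14 moved it further. The members with a reproducible region numbered 19, those with a promoter region 17 and the reproducible regions 28. Asking for all 3 experiments gave 10, 9 and 11. Any region was then found at 22.7% of members and a promoter region at 20.5%, against 29.8% and 25.3% of genes. Asking for 1 gave 32, 30 and 98, with 72.7% and 68.2% of members against 71.2% and 58.6% of genes. With a −log10 q of at least 5, they were 9, 8 and 9, with 20.5% and 18.2% of members against 25.6% and 20.5% of genes. Members with no peak then went from 12 to 26 (59.1%, against 54.4% of genes). Among the 2000 highest-ranked regions, 2 members had one (6.25% of genes). That limit, the protein-coding set (18 members) and the splits by CpG were added with the data in view. Leaving out 1 experiment at a time gave 13 members in each case (29.5%, against 31.0 to 37.4% of genes), 11 to 13 with a promoter region (25.0 to 29.5%, against 25.8 to 32.1%), 15 to 19 regions and 12 to 18 members with no peak (27.3 to 40.9%, against 32.5 to 35.1%). No paired analysis was possible because each list already sets the IP against its input and holds no separate input values. The lists hold pileups of at least 8, 7 and 9 fragments in experiments 1, 2 and 3, and what depth alone limits is unknown.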
